A study of Mus musculus with 4 samples.

Results

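The region was the stretch of mouse chromosome 4 from base 137000000 to base 145390000 (GRCm38), and its members were all loops with both anchors inside it. A loop here is a pair of anchors, which are genomic intervals between which ligated read pairs were counted. There were 9844 such loops of 1513030 in all, and they joined 315 of the 56562 anchors. The region was chosen by the ratio of DBA/2J to C57BL/6J counts in these libraries, so that ratio and every call made on it below are a description only.

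The data were H3K27ac HiChIP of mouse embryonic stem cells, a method that ligates DNA ends lying close together in fixed nuclei and then enriches those on chromatin with a given histone mark by an antibody. The C57BL/6J group (B6) held lines B6 4-1 and B6 5-1, and the DBA/2J group (D2) held lines D2 2-9 and D2 5-5. Each line gave 1 library, called replicate 1 and replicate 2 in that order, and the labels give the strain itself as each line's genotype. All 4 were grown in serum medium with LIF, PD0325901 and CHIR99021, the usual additions that keep such cells undifferentiated.

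H3K27ac is an acetylation of histone H3 found at active promoters and enhancers, and a HiChIP count depends on both the mark at an anchor and the contact between the anchors. A lower count of an anchor can therefore come with less of the mark or with fewer contacts, and these cannot be told apart here. The build named for the processing is the assembly of the strain with the higher counts in this region. The part of read mapping in lower counts, including those of anchors with no count in a strain, was not tested. The distal part of chromosome 4 holds genes used in most cells, such as Cdc42 and Rcc2, developmental genes such as Alpl and Pdpn, and tandem families, among them the oocyte and embryo genes of the Pramel family.

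Library totals were 2908329 and 2800847 counts in B6 and 2767882 and 2944258 in D2, and values below are counts per 1000000 of these totals (CPM). Of 10 embryonic stem cell markers, 7 had an anchor over a start site, and their summed level was 1767 to 2831 CPM; Esrrb, Tfcp2l1 and Klf2 had no such anchor. D2 replicate 1 had the highest of these sums, and its library name carries another cycle mark than the other names. The summed level was 10.8 to 15.1 for the 2 of 5 fibroblast markers that had an anchor, and Col1a1, Col1a2 and Col3a1 had none over a start site. The 3 of 4 endoderm, 3 of 3 mesoderm and 3 of 3 neural markers summed to 41.4 to 47.5, 61.2 to 83.6 and 57.8 to 76.8.

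The strain ratio changed level at 3 places inside the region, and the ends of the anchors on both sides of each are shown because they bound the change most closely. The sequences are 120 bases of GRCm38 and capitals mark GATC, the DpnII site at which every one of the 3698 anchors of chromosome 4 started.
Last anchor before the first change, in Zbtb17 (chr4:141456364-141456483, plus strand): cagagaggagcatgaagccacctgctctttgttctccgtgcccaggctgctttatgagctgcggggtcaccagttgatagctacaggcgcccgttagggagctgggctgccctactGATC
First anchor after the first change, in Zbtb17 (chr4:141457198-141457317, plus strand): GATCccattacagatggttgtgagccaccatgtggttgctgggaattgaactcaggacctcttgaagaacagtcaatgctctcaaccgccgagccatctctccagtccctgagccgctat
Last anchor before the second change, in 6330411D24Rik (chr4:142830638-142830757, plus strand): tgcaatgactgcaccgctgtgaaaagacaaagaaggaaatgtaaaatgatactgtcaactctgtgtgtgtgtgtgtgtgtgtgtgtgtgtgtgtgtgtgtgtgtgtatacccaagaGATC
First anchor after the second change, in 6330411D24Rik (chr4:142972620-142972739, plus strand): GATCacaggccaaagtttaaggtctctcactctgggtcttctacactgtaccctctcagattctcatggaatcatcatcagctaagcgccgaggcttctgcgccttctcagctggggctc
Last anchor before the third change, intergenic (chr4:143329464-143329583, plus strand): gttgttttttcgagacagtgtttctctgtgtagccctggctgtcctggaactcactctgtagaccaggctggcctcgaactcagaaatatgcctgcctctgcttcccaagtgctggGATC
First anchor after the third change, at Lrrc38 (chr4:143348788-143348907, plus strand): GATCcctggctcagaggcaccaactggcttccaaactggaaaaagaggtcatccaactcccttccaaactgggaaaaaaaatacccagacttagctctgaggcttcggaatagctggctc

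Another set is the first 120 bases of anchors at the extremes of the ratio, with GATC again in capitals. Among anchors with at least 100 counts the Pla2g2e anchor had the lowest ratio of D2 to B6 and the Pramef6 anchor the highest. The anchor near Gm13103 had the lowest ratio of all anchors of at least 20 counts with any D2 count.
Anchor at Pla2g2e (chr4:138880843-138880962, plus strand): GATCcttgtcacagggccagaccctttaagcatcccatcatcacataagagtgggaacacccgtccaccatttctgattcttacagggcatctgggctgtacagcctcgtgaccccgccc
Anchor near Gm13103 (chr4:143853719-143853838, plus strand): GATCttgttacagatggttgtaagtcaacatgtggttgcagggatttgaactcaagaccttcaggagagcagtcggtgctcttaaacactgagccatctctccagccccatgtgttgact
Anchor at Pramef6 (chr4:143891693-143891812, plus strand): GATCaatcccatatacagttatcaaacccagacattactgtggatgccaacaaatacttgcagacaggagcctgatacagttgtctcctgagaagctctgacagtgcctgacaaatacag

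Promoters of genes that were low in D2 ranged from CG-rich to CG-poor, and 3 of them are shown over the 250 bases before the RefSeq start site (GRCm38.p6), with each CG in capitals. The Rcc2 window held 41 CG, the Alpl window shown 20 and the Pdpn window 2, against a median of 6 over 32851 RefSeq promoter windows of that length. CG reads the same on both strands, and 92.1% of those windows held at least 1. A second RefSeq start site in the same Alpl anchor had a window with 4 CG, which is not shown.
Rcc2 promoter (chr4:140701223-140701472, plus strand): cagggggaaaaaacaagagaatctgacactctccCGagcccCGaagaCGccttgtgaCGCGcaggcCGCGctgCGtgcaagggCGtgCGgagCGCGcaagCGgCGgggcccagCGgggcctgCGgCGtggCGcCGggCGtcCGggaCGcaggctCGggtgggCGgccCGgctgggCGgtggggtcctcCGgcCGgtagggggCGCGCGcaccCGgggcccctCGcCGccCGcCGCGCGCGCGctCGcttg
Alpl promoter (chr4:137796385-137796634, minus strand): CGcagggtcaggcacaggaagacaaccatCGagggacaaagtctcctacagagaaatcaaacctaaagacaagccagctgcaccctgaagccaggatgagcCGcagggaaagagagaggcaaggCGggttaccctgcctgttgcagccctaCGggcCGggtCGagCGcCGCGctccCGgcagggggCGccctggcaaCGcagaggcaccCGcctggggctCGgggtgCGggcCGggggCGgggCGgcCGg
Pdpn promoter (chr4:143299565-143299814, minus strand): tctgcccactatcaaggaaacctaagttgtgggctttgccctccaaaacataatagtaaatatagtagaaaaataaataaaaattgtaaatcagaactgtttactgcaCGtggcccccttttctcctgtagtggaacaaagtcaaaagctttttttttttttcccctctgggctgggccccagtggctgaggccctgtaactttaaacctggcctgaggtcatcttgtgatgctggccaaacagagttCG

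Loops of the region were lower in both D2 libraries than in both B6 libraries. Their summed level was 8082 and 7830 CPM in the B6 libraries against 4811 and 5083 in those of D2, replicate 1 first. The B6 mean was 7956 ± 178 (SD, n = 2) and the D2 mean 4947 ± 192 (SD, n = 2), a log2 ratio of -0.69, or 37.8% lower in D2. The strains did not overlap, and without D2 replicate 1 the ratio was -0.65. Loops with exactly 1 anchor in the region, of which there were 1870, had a log2 ratio of -0.45. The rest of chromosome 4 stood at -0.12 and the other autosomes at 0.01.

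The ratio was shared by abundant and sparse loops. The 650 loops with at least 20 counts over the 4 libraries held 58.6% of the region's counts and had a summed log2 ratio of -0.58. Loops with under 20 counts, 3966 of them with a single count, had a ratio of -0.83. Loop by loop, the median over the 650 was -0.65 against 0.08 over all 108034 loops with that many counts, and 547 of the 650 were below 0. Both D2 libraries lay below both B6 libraries in 373 of the 650, against 17.9% of all loops. In the edgeR quasi-likelihood fit, adjusted by Benjamini-Hochberg over all loops, 70 of the 650 were called lower in D2 (0.797% of all loops were) and 4 higher (0.634%). Each of the 70 used at least 1 anchor that was itself called lower, and together they joined 59 anchors. The count of an anchor includes that of the loop, so the anchor calls are no separate evidence. The count of 70 was 12 without B6 replicate 1, 10 without B6 replicate 2, 19 without D2 replicate 1 and 5 by the DESeq2 Wald test.

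Anchors, whose count is the sum over all their loops, showed the same. Of 315 anchors, 313 had at least 20 counts, and 295 of those were below 0. In 271 of them both D2 libraries lay below both B6 libraries, against 28.0% of all 51820 anchors, and 228 had a log2 ratio below -0.5, against 16.5%. The median was -0.82. The edgeR test called 190 of the 313 lower in D2 (8.24% of all anchors) and 2 higher (2.93%). The count of 190 was 120 without B6 replicate 1 and 86 by the DESeq2 Wald test. These counts describe the region, since the same contrast chose it.

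**Figure D1:**
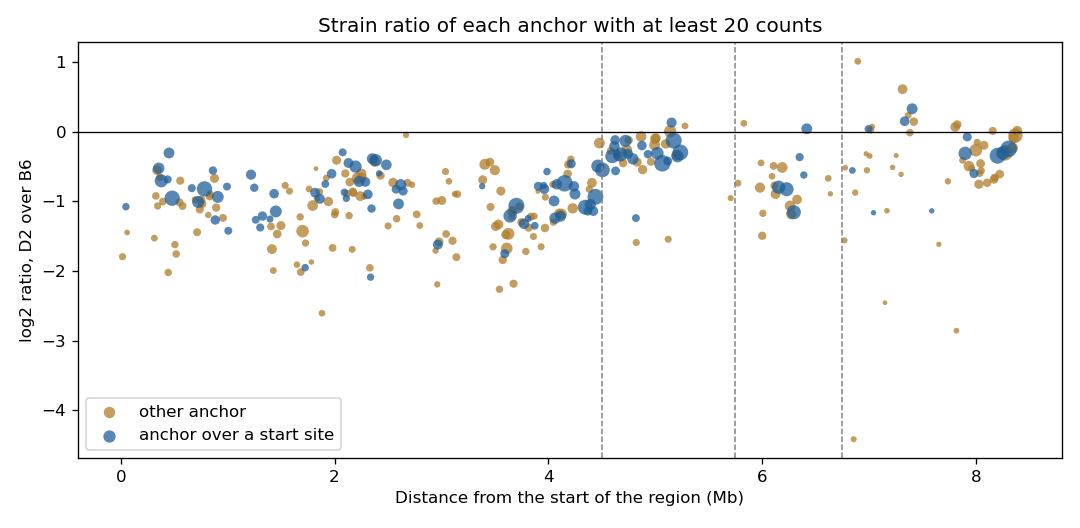
Each point is an anchor with at least 20 counts, placed by its distance from the start of the region in Mb (x) and by its log2 ratio of D2 over B6 (y); blue points overlap a start site, brown points do not, the area grows with the count and dashed lines mark the steps. Points left of the first line lie below 0 throughout, and points of both colours follow the steps; 1 anchor with no D2 count is not drawn.

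Windows of 250 kb showed where the ratio held. Of 34 windows, 29 had at least 200 counts, and 28 of the 29 had a log2 ratio below 0. Both D2 libraries lay below both B6 libraries in 27 of them, against 29.5% of such windows over all autosomes. The ratio was below -0.5 in 20 windows, which is 5 Mb of the 7.14 Mb measured. On the other autosomes 10.1% of 5182 windows were that low. The lowest window was 139.75 to 140 Mb, at 185 and 180 CPM in B6 and 50.6 and 79.5 in D2, giving a log2 ratio of -1.49. The highest was 144.25 to 144.5 Mb, at 173 and 164 in B6 and 231 and 175 in D2, giving a ratio of 0.27.

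**Figure D2:**
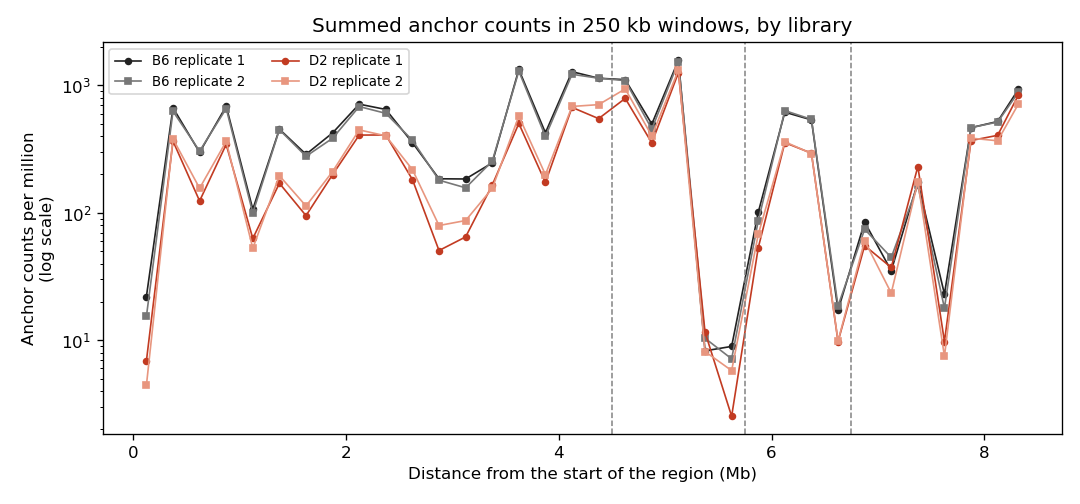
Summed anchor CPM (y, log scale) are plotted for each window of 250 kb by distance from the start of the region in Mb (x), with 1 line per library and dashed lines at the steps; the 5 windows with under 200 counts are drawn too. The D2 lines run below the B6 lines over the first 4.5 Mb, approach them after the first dashed line, and separate again between the second and the third.

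The 3 steps, taken at the borders of the 250 kb windows, divided the region into 4 stretches. The anchors between which each change was then placed, given below, do not lie at these borders. The first and the third stretch therefore also hold anchors from the far side of a placed change. The first, up to 141.5 Mb, held 195 anchors and 6167 loops within itself, with 4378 and 4236 CPM in B6 and 2066 and 2281 in D2, giving a log2 ratio of -0.99. The second, to 142.75 Mb, stood at 1159 and 1143 in B6 and 946 and 1036 in D2, giving a ratio of -0.22. The third, to 143.75 Mb, returned to a low ratio, with 471 and 493 in B6 and 260 and 258 in D2, or -0.90. The fourth, to 145.39 Mb, had 1061 and 1033 in B6 and 941 and 828 in D2, or -0.24. The strains did not overlap in any of the 4.

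Anchors followed their stretch. All 195 anchors of the first stretch were below 0 and 161 were called lower, while 5 of 39 were called lower in the second, 12 of 22 in the third and 12 of 57 in the fourth. The region's 2 anchors called higher both lay in the fourth. Of the 70 loops called lower, 57 ran within the first stretch (of 320 tested there) and 10 within the third (of 44). Within the second (128 tested) and the fourth (91 tested), edgeR called 0, with 8 and 11 at an unadjusted p under 0.05, and DESeq2 called 0 too. Loops that crossed a step mostly took values between those of their 2 ends. They stood at -0.60 between the first and the second stretch, -0.56 between the second and the third, and -0.62 between the third and the fourth. Loops from the first to the third, both low, stood at -1.14 with 93 loops, and those from the second to the fourth at 0.00 with 46 loops.

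The first step lay inside Zbtb17, which encodes the zinc finger transcription factor Miz-1, a partner of Myc. The anchor from 141424124 to 141456480, over the start sites of Srarp and Zbtb17, had 371 and 364 CPM in B6 and 173 and 212 in D2, giving a log2 ratio of -0.94. The next anchor, from 141457198 to 141468616 and over another Zbtb17 start site, had 149 and 159 in B6 and 93.9 and 125 in D2, giving a ratio of -0.49. The strains did not overlap in either. The gap between these anchors was 718 bp. Over anchors of at least 100 counts within 500 kb of the window border, the count-weighted mean was -0.94 before the step and -0.35 after it. The step was not a clean edge. Beyond it an exon anchor of Spen had 65.3 and 64.6 in B6 and 49.9 and 66.2 in D2, giving a ratio of -0.16 with overlapping strains. The Spen start site, which belongs to a large co-repressor needed for silencing by Xist, stood at -0.55.

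The second step, downward, fell in the long noncoding gene 6330411D24Rik, where 2 windows had too few counts. Its last anchor before the change, from 142827244 to 142830754, had 8.94 and 8.93 CPM in B6 and 6.86 and 12.6 in D2, giving a ratio of 0.12 with overlapping strains. Without D2 replicate 2 that ratio was -0.38. The first anchor after it, from 142972620 to 142987027, had 65.7 and 55.0 in B6 and 31.4 and 37.7 in D2, or -0.80 with no overlap. The gap was 141866 bp, and the count-weighted mean went from -0.29 to -0.80. This step was not a clean edge either. To the left of the placed change, the anchors starting at 142703479 and 142771408 already stood at -0.95 and -0.74. Their strains did not overlap, but neither was called. The anchor before them, starting at 142277183, stood at 0.08 with overlapping strains.

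The third step, upward, lay between an intergenic anchor and Lrrc38, which encodes an accessory subunit of potassium channels. The intergenic anchor, from 143323256 to 143329580, had 53.3 and 51.4 in B6 and 27.8 and 25.5 in D2, giving a ratio of -0.97. The Lrrc38 anchor, from 143348788 to 143351912, had 24.4 and 21.1 in B6 and 17.0 and 18.3 in D2, giving a ratio of -0.36. The strains did not overlap in either. The gap was 19208 bp, and the count-weighted mean went from -0.93 to -0.09. Nor was this step a clean edge. To the right of the placed change, the anchors starting at 143387929 and 143616164 stood at -0.62 and -0.67. Their strains did not overlap, but neither was called. Between them the Pramef8 anchor stood at 0.04 with overlapping strains. Further right the anchor starting at 143768280 stood at -1.56 and was called lower.

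Outside the region the low ratio ran on to the left, and at the right border it was near 0 before low windows returned. Counted over all loops, windows were below -0.5 without a break from 136.5 to 141.5 Mb, 20 measured windows in a row. By number of measured windows, with those under 200 counts skipped, only a run of 21 on chromosome 8, from 31 to 41.25 Mb, was longer on the autosomes. By length, the run of 17 on chromosome 12, from 19.25 to 28.75 Mb, and the run of 14 on chromosome 7, from 58.25 to 66.75 Mb, were longer too. The last anchor before the region, over the start site of the complement gene C1qa, had 28.9 and 25.3 CPM in B6 and 10.5 and 13.9 in D2, or -1.15. The first anchor inside, over an exon of Zbtb40, had 22.01 and 14.6 in B6 and 6.14 and 4.42 in D2, or -1.80. At the right border the last anchor inside stood at 0.01 and the first after it, over the noncoding gene Platr16, at 0.01, both with overlapping strains. Further right the window from 145.75 to 146 Mb stood at -1.84 and that from 146.25 to 146.5 Mb at -1.30, and the 8 windows from 147 to 149 Mb all lay below -0.5.

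Promoter anchors and other anchors shared the low ratio. The 109 anchors over a start site had a median log2 ratio of -0.76, with 74 below -0.5 and 68 called lower. The 204 other anchors with at least 20 counts had a median of -0.88, with 154 below -0.5 and 122 called lower. Among all anchors of the series 16.5% were below -0.5 and 8.24% were called lower. The difference between the medians of the region's classes was 0.12. On the other autosomes promoter anchors stood at 0.04 and other anchors at -0.06, a difference of 0.11, so the gap between the classes in the region was close to that elsewhere. For loops the order was alike. Loops with both anchors over a start site stood at -0.62 in the region and 0.10 on the other autosomes, those with 1 at -0.71 and -0.01, and those with none at -0.80 and -0.10.

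Within the first stretch the promoter median was -0.88 over 71 anchors and the other median -1.09 over 124. In the second the order turned, at -0.32 over 20 and -0.27 over 19. In the third the medians were -0.71 over 6 and -0.79 over 16, and in the fourth -0.31 over 12 and -0.46 over 45. Of the 109 promoter anchors, 66 held the start site of a RefSeq promoter window. Those with at least the median CG count of all windows, 50 anchors, had a median ratio of -0.75 with 31 called lower, and the 16 with fewer CG had -1.001 with 10 called lower.

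**Figure D3:**
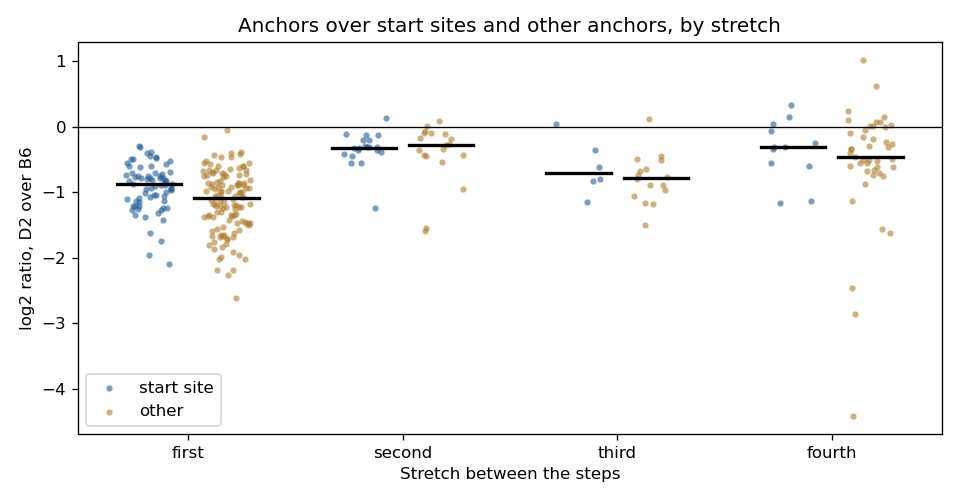
The log2 ratio of D2 over B6 (y) is plotted for each anchor with at least 20 counts in the 4 stretches (x), with start-site anchors in blue, other anchors in brown and black bars at the medians; sideways scatter has no meaning and 1 anchor with no D2 count is not drawn. Both classes follow the steps, with medians of -0.88 and -1.09 in the first stretch and -0.32 and -0.27 in the second.

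Width, count and base composition varied with the ratio across anchors. Over 313 anchors, which share libraries and neighbours, the Spearman correlation with the log2 ratio was 0.25 for width, 0.29 for total count and -0.26 for GC content. In 3 equal groups by width, narrow to wide, the median ratio was -0.91, -0.84 and -0.71. In 3 groups by count, low to high, it was -0.96, -0.83 and -0.60, so every group was low. The order of promoter and other anchors varied among these groups. In the widest group promoter anchors stood at -0.74 and other anchors at -0.63, while in the narrow and the middle group promoter anchors were the higher. By count, promoter anchors were the lower in the low and the high group, at -0.71 against -0.53 in the high one, and the higher in the middle group. The first stretch had a GC content of 50.3% and the fourth 42.7%, against 42.3% for chromosome 4. The part of width, depth or GC content in the ratio was not tested.

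The region was low at every loop distance. Loops under 20 kb had a log2 ratio of -0.59 and those from 500 kb to 2000 kb one of -0.77, while the same classes on the other autosomes stood at 0.09 and -0.14. The difference from the other autosomes was between -0.63 and -0.77 in all 6 distance classes. The median distance of a count in the region was 124 and 117 kb in B6 and 104 and 113 kb in D2.

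**Figure D4:**
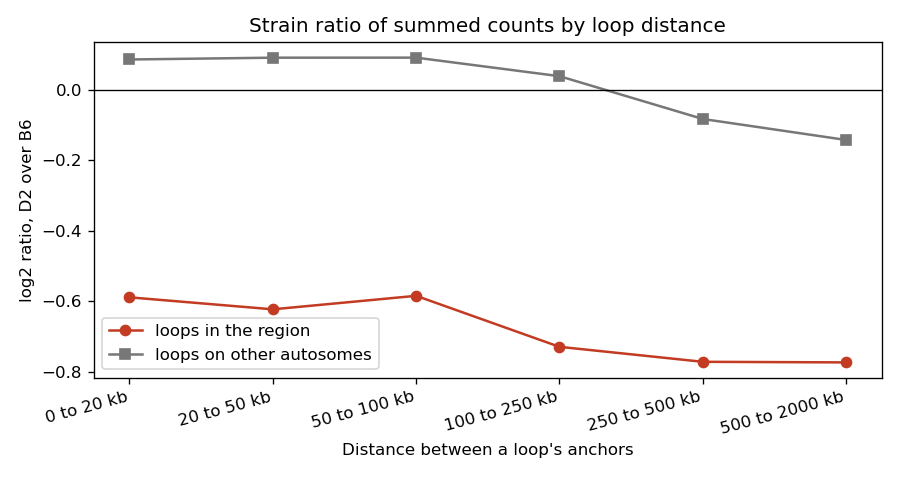
The log2 ratio of D2 over B6 of summed counts (y) is plotted for 6 classes of distance between a loop's anchors (x), for loops in the region and on the other autosomes. Both lines are lower above 100 kb than below it, and the region's line lies below the other in all 6 classes, by -0.63 to -0.77.

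Start-site anchors of genes used in most cells had ratios below 0, and those below -0.5 lay mostly in the first stretch. Each gene is given here and below by its start-site anchor with the most counts. Of 25 such genes, 24 had a start site in an anchor, on 21 distinct anchors, and Usp48 had none. All 21 were below 0 with no overlap between strains, 15 were below -0.5, 15 were called lower, and the median log2 ratio was -0.62. Among all anchors of the series, both D2 libraries lay below both B6 libraries in 28.0%. The share below -0.5 was 16.5% and the share called lower 8.24%. Over the 71 anchors so chosen for the region's 133 coding genes, 67 were below 0, 45 were called lower and the median was -0.75.

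Rcc2, which encodes a regulator of chromosome condensation and cell division, carried one of the largest shares. Its start-site anchor had 415 and 378 CPM in B6 and 190 and 190 in D2, giving a log2 ratio of -1.06 (SE 0.13), or 52.2% lower in D2. The anchor shared by Fbxo42, a subunit of a ubiquitin ligase, and Szrd1 had 432 and 392 in B6 and 252 and 241 in D2, or -0.74 (SE 0.13). The strains were apart by far more than the replicates in both.

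Eif4g3, a scaffold of translation initiation, was the lowest of the list by the anchor with the most counts of each gene. That Eif4g3 anchor had 30.6 and 21.8 in B6 and 8.67 and 10.9 in D2, or -1.42 (SE 0.26). It held 206 counts. Another Eif4g3 start-site anchor, with 203 counts, stood at -0.79 and was called lower too. Ddost, a subunit of the enzyme that attaches glycans to proteins, had 26.5 and 28.9 in B6 and 10.5 and 10.9 in D2, or -1.38. Pink1, the kinase that marks damaged mitochondria, had 45.4 and 49.3 in B6 and 18.8 and 22.1 in D2, or -1.21. The D2 levels of these 3 were under those of B6 by 56.8% to 62.7%. Mul1, a mitochondrial ubiquitin ligase, stood at -0.89 and Sdhb, a subunit of succinate dehydrogenase, at -0.82.

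Other genes of the first stretch were less low. Cdc42, a small GTPase of cell polarity, had 94.6 and 91.4 in B6 and 65.4 and 63.9 in D2, or -0.52. Capzb, an actin capping protein, stood at -0.50 and Ubr4, a ubiquitin ligase, at -0.41. The anchor of Mrto4 and Emc1, a ribosome assembly factor and a membrane insertion subunit, stood at -0.39 and was not called. After the first step, Plekhm2 stood at -0.33, Dnajc16 and Casp9 on a shared anchor at -0.39 and Ddi2 at -0.13, none of them called. Prdm2, a histone methyltransferase gene in the third stretch, had 216 and 228 in B6 and 129 and 122 in D2, or -0.83. Vps13d, a lipid transfer protein gene in the fourth, had 330 and 308 in B6 and 273 and 230 in D2, or -0.34. There was no overlap but no call at this anchor. Another Vps13d start-site anchor, starting at 144979321 and with fewer counts, stood at -0.60 and was called lower.

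Start-site anchors of developmental and signalling genes were below 0 too. Of 22 genes, 17 had a start site in an anchor, and 17 were below 0 with a median of -0.82. The strains did not overlap in 15 of them and 11 were called lower, against 28.0% and 8.24% of all anchors. Wnt4, Pax7, Igsf21, Mfap2 and Epha2 had no start site in an anchor. The difference between the lists was not tested.

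Alpl, which encodes the tissue-nonspecific alkaline phosphatase used as a stem cell stain, had 332 and 305 CPM in B6 and 180 and 180 in D2, giving a log2 ratio of -0.82 (SE 0.13). Hspg2, which encodes the basement membrane proteoglycan perlecan, had 336 and 306 in B6 and 162 and 169 in D2, or -0.95. Arhgef10l had 200 and 197 in B6 and 78.0 and 93.7 in D2, or -1.21. In these 3 the D2 libraries lay well below the B6 libraries. Camk2n1, an inhibitor of the kinase CaMKII, had 127 and 120 in B6 and 51.7 and 59.8 in D2, or -1.15. Rap1gap stood at -1.01, Ece1, the endothelin-converting enzyme, at -0.94, and Hspb7, a small heat shock protein, at -1.14.

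The second stretch held both a gene whose strains overlapped at its anchor with the most counts and one called lower. That anchor of Kazn, which encodes a protein of cell junctions, had 325 and 292 in B6 and 301 and 264 in D2, or -0.13. The other Kazn start-site anchors, by position, stood at -0.42, 0.13, -0.35 and -0.30, none of them called. Their strains overlapped only at 0.13. Tmem51 had 394 and 366 in B6 and 266 and 289 in D2, or -0.45, and was called lower. In the third stretch Pdpn, which encodes the membrane glycoprotein podoplanin, had 250 and 238 in B6 and 106 and 112 in D2, or -1.16 (SE 0.14), the lowest value of this list outside the first stretch. In the fourth stretch Dhrs3, a retinaldehyde reductase gene, stood at -0.31, Tnfrsf1b, a receptor of tumour necrosis factor, at -0.31, and Tnfrsf8, the CD30 receptor, at -0.25. Tnfrsf8 had the most counts of the region's anchors, with 368 and 349 in B6 and 328 and 276 in D2.

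By stretch, the anchors of both lists, for each gene the one with the most counts, divided as the windows did. In the first, 22 of 25 were called lower with a median of -0.87, and in the third 2 of 2. In the second, 2 of 7 were called lower with a median of -0.33, and in the fourth 0 of 4 with a median of -0.31, of which edgeR put 3 at an unadjusted p under 0.05 and DESeq2 called 0. The 2 called in the second were Spen and Tmem51.

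**Figure D5:**
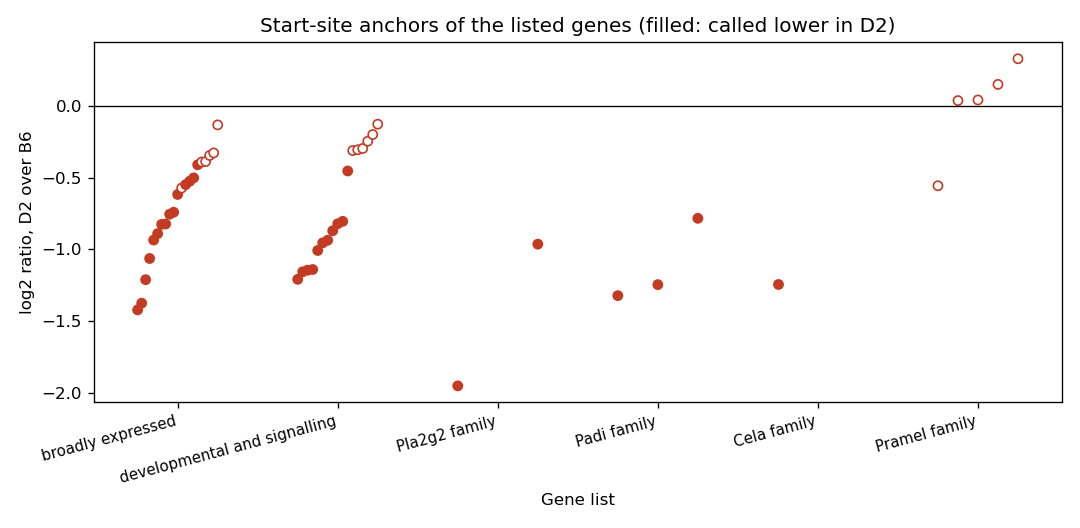
Each point is a start-site anchor of a listed gene, by list (x) and log2 ratio of D2 over B6 (y), ordered by value within a list and filled where edgeR called it lower in D2. All points of the first 5 lists lie below 0, and 4 of the 5 of the Pramel family lie above it.

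The tandem families differed by position. In the first stretch, Pla2g2c, a secreted phospholipase gene that shares its anchor with Ubxn10, had 20.3 and 24.3 in B6 and 5.06 and 6.45 in D2, giving a log2 ratio of -1.95, the lowest of any coding gene's start site in the region. Pla2g5 stood at -0.96, and the other 3 of 5 in that family had no start-site anchor. Of the 5 Padi genes, which encode enzymes that turn arginine into citrulline in proteins, Padi4 stood at -1.32, Padi3 at -1.25 and Padi2 at -0.78, all called lower. Cela2a, a pancreatic elastase gene, lay in the second stretch yet had 23.4 and 24.6 in B6 and 10.5 and 9.85 in D2, or -1.24, below the median of -0.32 over that stretch's anchors.

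The Pramel family was the exception among the lists. Of 23 genes, 5 had a start-site anchor, with a median of 0.04. Of these, 0 were called by edgeR, 1 had an unadjusted p under 0.05 there, and DESeq2 called 0. Pramef12 had 58.8 and 52.8 in B6 and 80.6 and 59.8 in D2, or 0.33 with no overlap. Pramef8 had 62.9 and 59.3 in B6 and 71.2 and 54.7 in D2, or 0.04. It lies in the third stretch as cut at the window border, but to the right of the anchors that bound the third change. Gm13128 stood at 0.15, Pramef17 at 0.04 and Gm13103 at -0.56. The values of Pramef8 and Gm13128 were below 0 without D2 replicate 1, at -0.16 and -0.07, and Pramef17 was below 0 without B6 replicate 1, at -0.11. Members of this family are near copies of each other, so the counts of any 1 of them are uncertain. None of the 7 Aadacl genes had a start-site anchor.

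Single anchors stood far from their stretch. Among anchors with at least 100 counts, the lowest covered an exon of Pla2g2e from 138880843 to 138884081 and had 13.4 and 18.6 CPM in B6 and 2.53 and 2.72 in D2, giving a log2 ratio of -2.61. An exon anchor of Arhgef10l stood at -2.26, an intergenic anchor near Gm13025 at -2.18, the anchor of Gm24245 and Gm25732 at -2.09 and an intergenic one near Gm13010 at -2.02. All 5 lay in the first stretch. They were picked by this same ratio as the lowest of 276 anchors, and their SE was 0.26 to 0.38.

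In 5 of the 313 anchors (1.597%) the D2 level was under 0.2 of the B6 level, against 0.527% of all anchors, and 4 of them lay in the fourth stretch, where the median was -0.35. These 4 were singled out after their values were seen, and each is intergenic. The anchor near Gm13103, from 143853719 to 143859071, had 39 and 26 counts in B6 and 2 and 1 in D2, a 21.7-fold difference with a 95% interval of 7.10 to 108 (exact binomial, for counting error only). The anchor from 144599870 to 144602585, near Aadacl4, had 11 and 10 counts in B6 and 0 and 0 in D2. That is at least 7.004-fold lower in D2 against a set floor of 3 counts over the D2 group. The exact binomial 95% interval of this anchor, for counting error only, reached down to 5.21-fold. The anchor reached the count minimum through its B6 counts alone. Its fold and its interval are therefore a description and no evidence of a loss in D2. The anchor near Prdx2-rs3, from 144815528 to 144818066, had 26 and 25 counts in B6 and 4 and 3 in D2. The anchor near Oog3, from 144147824 to 144149843, had 12 and 10 in B6 and 2 and 2 in D2.

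The 2 anchors called higher in D2 lay among Pramel genes. The anchor over an exon of Pramef6, from 143891693 to 143897646, had 7.56 and 5.36 CPM in B6 and 9.75 and 16.3 in D2, giving a log2 ratio of 1.01. The anchor near Gm13130, from 144306015 to 144320859, had 32.0 and 32.8 in B6 and 66.5 and 32.6 in D2, or 0.61, so it was high in D2 replicate 1 alone. Without that library its ratio was 0.01. The count of 2 was 0 without either B6 replicate and 1 without D2 replicate 1.

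The most abundant loops were not those called lower. The loop between the Kazn start-site anchors had 213 and 206 counts in B6 and 232 and 174 in D2, giving a log2 ratio of -0.04 with overlapping strains. The loop from Vps13d to Tnfrsf8 had 181 and 166 in B6 and 154 and 138 in D2, or -0.25. The other 3 of the 5 with most counts joined Vps13d, Tnfrsf1b and Tnfrsf8 anchors at -0.15, -0.17 and -0.47. All 5 lay in the second or the fourth stretch and none was called.

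The 4 loops called higher in D2 lay in the fourth stretch. The loop from Pramef17 to Gm13128 had 0 and 1 counts in B6 and 16 and 10 in D2, a 26.0-fold difference with a 95% interval of 4.27 to 1065. The loop from the anchor near Gm13108 to the one near Gm13130 had 0 and 2 counts in B6 and 10 and 8 in D2, or 9.00-fold with an interval of 2.15 to 79.9. Both loops reached the minimum of 20 counts mainly through their D2 counts. The intervals (exact binomial) cover counting error only, not the choice of loops by their calls, so these folds are a description. The loop from that Gm13130 anchor to Pramef12 had 14 and 9 in B6 and 40 and 16 in D2, and a loop between anchors near Prdx2-rs3 had 10 and 4 in B6 and 20 and 23 in D2. Both D2 libraries lay above both B6 libraries in these 4, as they did in 23.8% of all loops. The count of 4 was 0 without B6 replicate 1, 1 without B6 replicate 2 and 1 without D2 replicate 1.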

How the data were processed

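H3K27ac HiChIP was measured in 4 libraries, 2 per strain. The deposited table gives raw read-pair counts per pair of anchors, with no normalization stated; HiC-Pro 2.11.4, DESeq2 and build mm10 are named in the submitters' processing notes, and the loop caller's settings are not given in the sources used here. mm10 (GRCm38) is the C57BL/6J assembly. The q-like column of the single-library files was not used, and their counts equal those of the table. Anchor counts were summed over loops, and start sites came from GENCODE M21. Ratios are log2 of the D2 mean over the B6 mean of counts divided by library totals. Features with at least 20 counts were tested over the whole table by edgeR 4.0.16's quasi-likelihood test (R 4.3.3, limma 3.58.1), scaled by library totals, with Benjamini-Hochberg adjustment and 0.05 as the threshold. The fit was tested on simulated data. SE is that of the fitted log2 coefficient. Windows were 250 kb with at least 200 counts, and low below -0.5. Steps were borders of low windows, and these borders cut the stretches. Each change was then placed between the neighbouring anchors that best split the anchor ratios, weighted by count, within 500 kb of the window borders. Named were the listed genes with a start-site anchor (the anchor with most counts), the 10 anchors and 5 loops with most counts, the 5 lowest and 5 highest anchors with at least 100 counts, and those beside each step. Members, lists and tests were chosen with earlier results of these data known. The labels call the lines of a strain biological replicates. With 2 libraries against 2 an exact permutation test cannot give a p under 0.333. Alternatives were other scaling (TMM, DESeq2 1.42.0), count minimums, window sizes, anchor definitions, a replicate block and leaving out each library.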

Additional observations from a re-analysis of the deposited data

How the results depend on the processing

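The direction of the regional ratio held under every alternative tried. Its value of -0.69 was -0.75 with TMM factors, -0.51 with totals on chromosome 4, -0.58 over loops with at least 20 counts and -0.45 over loops with 1 anchor inside, and -0.73 to -0.65 leaving out each library. The 70 loops called lower were 5 by the DESeq2 Wald test, 23 with no count filter and 10 to 59 leaving out each library, which leaves 1 library in a strain and assumes that it varies like the others: 12 without B6 replicate 1, 10 without B6 replicate 2 and 19 without D2 replicate 1. The 190 anchors called lower were 86 by the DESeq2 Wald test and 120 to 191 leaving out each library, with 120 without B6 replicate 1. The 4 loops and 2 anchors called higher were 0 by DESeq2, with 3 loops and 1 anchor at an unadjusted p under 0.05, and 0 to 3 loops and 0 to 2 anchors leaving out each library. The cause of these changes was not tested, beyond the smaller number of libraries. The low windows, 5 Mb, covered 4.5 Mb in windows of 100 kb, 6 Mb in windows of 500 kb and 5.25 Mb counted over all loops, and 5 to 5.25 Mb leaving out each library. The promoter difference of 0.12 ranged from 0.08 to 0.17 leaving out each library. With the replicate number as a block, 61 loops and 188 anchors were called lower and the regional ratio was -0.69. Deviations of same-numbered libraries correlated at 0.00 over anchors. With so few libraries this cannot decide whether those of the same number were handled together. Of 488 alternative values for the 70 named anchors, 9 changed sign, for 7 anchors whose ratios lay within 0.16 of 0. Counts limit single loops most: 40.3% of the region's loops had 1 count.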
